A study of Mus musculus with 13 samples.

Results

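A set of 9 genes that mark the contractile, matrix-active state of cultured fibroblasts was followed through the programming of mouse embryonic fibroblasts by the transcription factor Foxn1. They are Acta2, Tagln, Cnn1, Myh11, Actg2 and Myl9, which encode parts of the smooth muscle type actin and myosin apparatus, and Ctgf, Cyr61 and Thbs1, which encode secreted proteins. The 9 genes were taken by symbol from a table of 24394 symbols. No cutoff on their values was applied, but earlier results of these data were known when they were chosen. Of these symbols 17004 had enough counts to be tested, and all 9 genes were among them.

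A myofibroblast is a fibroblast that has built actin stress fibres containing smooth muscle actin and pulls on the matrix around it. Its genes are driven by serum response factor (SRF) with its actin-sensing cofactors, by the cofactors YAP and TAZ bound to TEAD factors, and by transforming growth factor beta (TGF-beta) acting through Smad proteins. Fibroblasts on stiff plastic in serum commonly enter this state, whereas thymic epithelial cells are keratin-bearing cells that support developing T cells.

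The study asked how Foxn1 turns fibroblasts into induced thymic epithelial cells. Induction used an iFoxn1 allele that a Cre plasmid, driven by the PGK promoter and delivered by nucleofection, switches on. The day 2 group (n = 2) and the day 10 group (n = 3) are Cre-induced fibroblast cultures. The Epcam-positive and Epcam-negative groups (n = 2 each) were sorted by that epithelial surface protein 12 days after induction. Fetal thymic epithelial cells (fetal TEC, n = 2) were untreated cells of stage E15.5. The MEF group (n = 2) was untreated embryonic fibroblasts of stage E13.5, taken here as the baseline of the time course. The protocols give primary iFoxn1/+ fibroblasts, with a single copy of the allele, under every sample including fetal TEC, while the genotype label reads N/A throughout. Nothing states a strain, or whether replicates came from separate cultures or embryos, so the p-values measure only the spread between these libraries, which may be technical. In the fit of all 13 libraries, the spread of each gene is estimated jointly over every group. The p-value and SE of a comparison therefore also reflect the spread of groups outside it. Count columns whose names say No Cre are read here as MEF.

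The 13 libraries held 35805780 to 86465460 counts. Foxn1 stood at 292 to 468 CPM (the usual depth-scaled count, here scaled by the TMM method) in every programmed or fetal TEC library and at no more than 18.3 CPM in MEF. Epcam was 4.80 and 30.6 CPM in Epcam-positive cells and 0.560 and 0.290 CPM in Epcam-negative cells, while fetal TEC had 312 and 574 CPM. The unsorted day 10 cultures had 5.03, 5.05 and 5.53 CPM, above Epcam-positive replicate 1. Each gene's log2 level was taken relative to its own mean over the 13 libraries. This relative level declined with transcript length in fetal TEC 1 and 2 and replicate 2 of the Epcam-positive cells, 3 libraries that stood apart. Its rank correlation with length was −0.426 to −0.393 there over 14011 genes and 0.235 to 0.387 in the other 10. Since the mean holds all 13 libraries, the signs describe the libraries only against each other. Below, the 10 are said to have the usual length pattern and the 3 the reversed one. Gapdh was 128 to 188 CPM in those 3 libraries and at most 7.20 CPM in the other 10. Xist, the RNA that coats the inactive X chromosome, was 795 to 2278 CPM by library size in the MEF and Epcam-negative libraries and at most 8.21 in all others. The summed Y-linked genes ran the other way, at most 0.0164 against 32.8 to 326. This split in sex-linked RNA runs along MEF against every group but Epcam-negative cells, and along Epcam-positive against Epcam-negative cells. In those comparisons the sex or source of the cells cannot be told apart from programming or sorting. Macrophage marker RNA also differed: 8 markers summed to 2.01 to 10.1 CPM in the day 2, day 10, Epcam-negative and Epcam-positive replicate 2 libraries, against 2905 and 3034 CPM in MEF. The part that any of these differences plays in the results was not tested.

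The 9 genes lie apart on several chromosomes of mm10, in the GENCODE M21 annotation. Acta2 spans chr19:34241090-34255590, Tagln chr9:45929619-45936058, Cnn1 chr9:22099216-22109630 and Myh11 chr16:14194535-14291372. Actg2 spans chr6:83512905-83536265, Myl9 chr2:156775420-156781658 and Thbs1 chr2:118111876-118127133. Ctgf spans chr10:24595442-24598683 and Cyr61 chr3:145646976-145649981. Cnn1, Myl9, Ctgf and Thbs1 are on the plus strand and the other genes on the minus strand.

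Promoters bear on genes that shift together, and 4 of the 9 genes had an entry in the RefSeq promoter table (build GRCm38.p6), namely Acta2, Cnn1, Myl9 and Cyr61. Tagln, Myh11, Actg2, Ctgf and Thbs1 are named only. Windows of 250 bases before to 50 bases after each start were searched on both strands for 3 motifs that do not overlap one another in these windows: the CArG box that SRF binds (CC, 6 bases that are each A or T, then GG), the TEAD motif GGAATG and the Smad motif CAGAC. The 3 genes with a strict CArG or TEAD match are given over the 250 bases before their RefSeq start, 5′ to 3′ on the strand of the gene, with that match in capitals.
Acta2 (chr19:34255374-34255623, minus strand, TEAD motif): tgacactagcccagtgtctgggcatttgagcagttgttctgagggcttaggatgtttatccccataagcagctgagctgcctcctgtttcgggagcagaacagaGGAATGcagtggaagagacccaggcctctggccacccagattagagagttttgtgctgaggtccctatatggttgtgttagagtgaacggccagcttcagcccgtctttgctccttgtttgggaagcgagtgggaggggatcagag
Myl9 (chr2:156775214-156775463, plus strand, CArG box): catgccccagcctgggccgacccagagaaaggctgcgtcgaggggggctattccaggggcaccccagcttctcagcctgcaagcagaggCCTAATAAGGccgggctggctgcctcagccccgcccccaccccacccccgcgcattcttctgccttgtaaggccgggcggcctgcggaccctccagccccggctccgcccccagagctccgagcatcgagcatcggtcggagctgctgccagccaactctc
Cyr61 (chr3:145649986-145650235, minus strand, TEAD motif read on the opposite strand): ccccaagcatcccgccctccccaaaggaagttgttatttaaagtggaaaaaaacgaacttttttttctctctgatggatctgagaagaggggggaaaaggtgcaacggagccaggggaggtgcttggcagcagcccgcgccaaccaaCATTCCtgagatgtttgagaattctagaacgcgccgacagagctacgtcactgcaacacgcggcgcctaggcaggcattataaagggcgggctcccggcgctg

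The Myl9 box lies 161 to 152 bases before the start, the Acta2 motif 146 to 141 bases before it and the Cyr61 motif 103 to 98 bases before it. Among 32851 promoters of the table, 1.63% held the strict CArG box and 14.7% the TEAD motif. With exactly 1 base off the strict box, a search added after the data were seen, the Acta2 window held CCCTATATGG at 84 to 75 and CCTTGTTTGG at 34 to 25 bases before the start, and the Myl9 window CCTTGTAAGG at 99 to 90 bases before it. Such a match was in 19.9% of all promoters, and the lack of a strict box in Acta2 says nothing of SRF binding there. The Smad motif was found in Acta2, 235 to 231 bases before the start on the opposite strand, and past the start in Cnn1 and Cyr61. It was in 49.6% of all promoters. These matches describe letters in a window, and the RefSeq starts used for Acta2, Cnn1 and Myl9 lie inside the spans that GENCODE M21 gives these genes, so the printed Acta2 and Myl9 windows run into the annotated gene.

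Together the 9 genes took a shrinking share of the RNA through the time course. They made up 1.85% and 1.77% of all counts in MEF, 1.11% and 1.05% at day 2, and 0.414%, 0.428% and 0.411% at day 10 (95% Wilson intervals within 0.0035 percentage points, counting error only). Thbs1 was the greatest part, with 1.11% and 1.21% of every count in MEF libraries. The shares were 0.677% and 0.554% in Epcam-positive cells, 0.291% and 0.299% in Epcam-negative cells and 0.124% and 0.111% in fetal TEC. The MEF libraries stand above all others, and fetal TEC below all others.

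**Figure D1:**
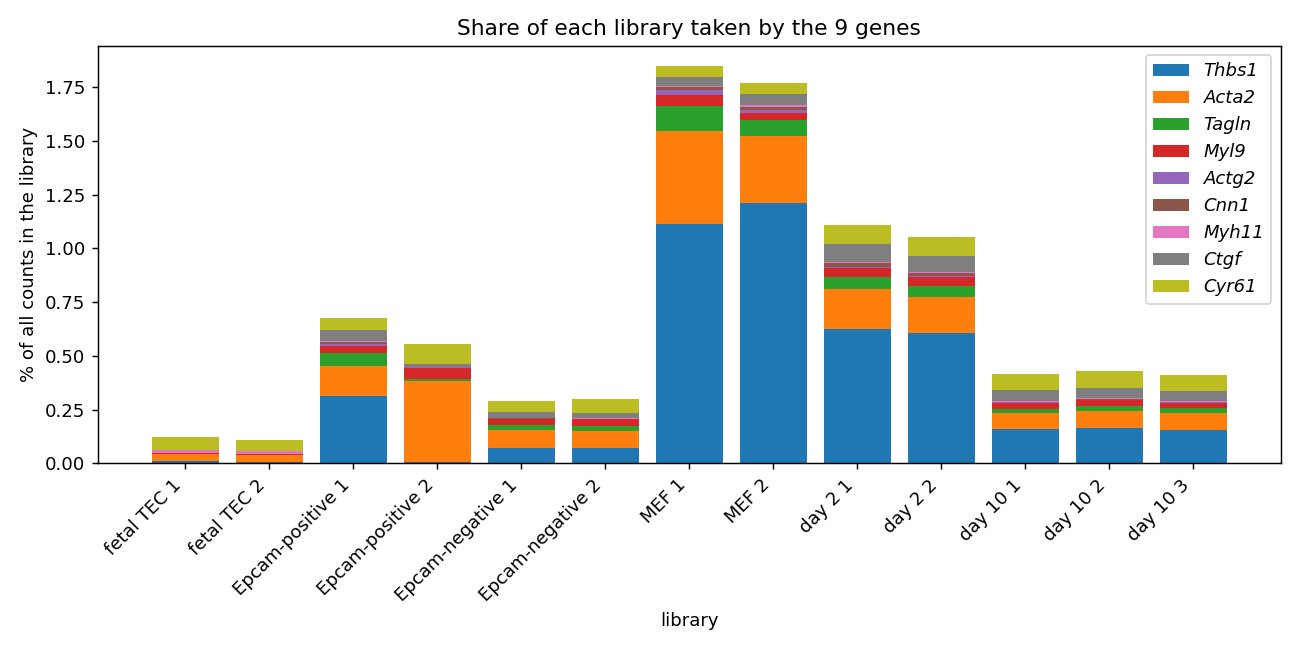
Share of all counts taken by each of the 9 genes (percent, stacked bars) in each library. The bars reach 0.124% and 0.111% in fetal TEC and 1.85% and 1.77% in MEF libraries, and Thbs1 and Acta2 form most of each MEF bar.

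Per kilobase of exon, which allows genes to be set beside each other, Thbs1 averaged 2055 ± 272 and Acta2 1876 ± 295 CPM per kilobase in MEF (SD, n = 2), levels that overlap. Tagln (615 ± 150), Myl9 (357 ± 77.7), Cyr61 (256 ± 15.7), Ctgf (185 ± 37.5) and Actg2 (155 ± 21.0) followed. Cnn1 (50.9 ± 4.96) and Myh11 (11.1 ± 5.57) were the lowest. At day 10 the order was led by Acta2 (352 ± 10.8), Cyr61 (338 ± 5.75) and Thbs1 (252 ± 7.98; SD, n = 3). At day 10 Cyr61 stood next to Acta2, and both lay above Thbs1 without overlap.

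**Figure D2:**
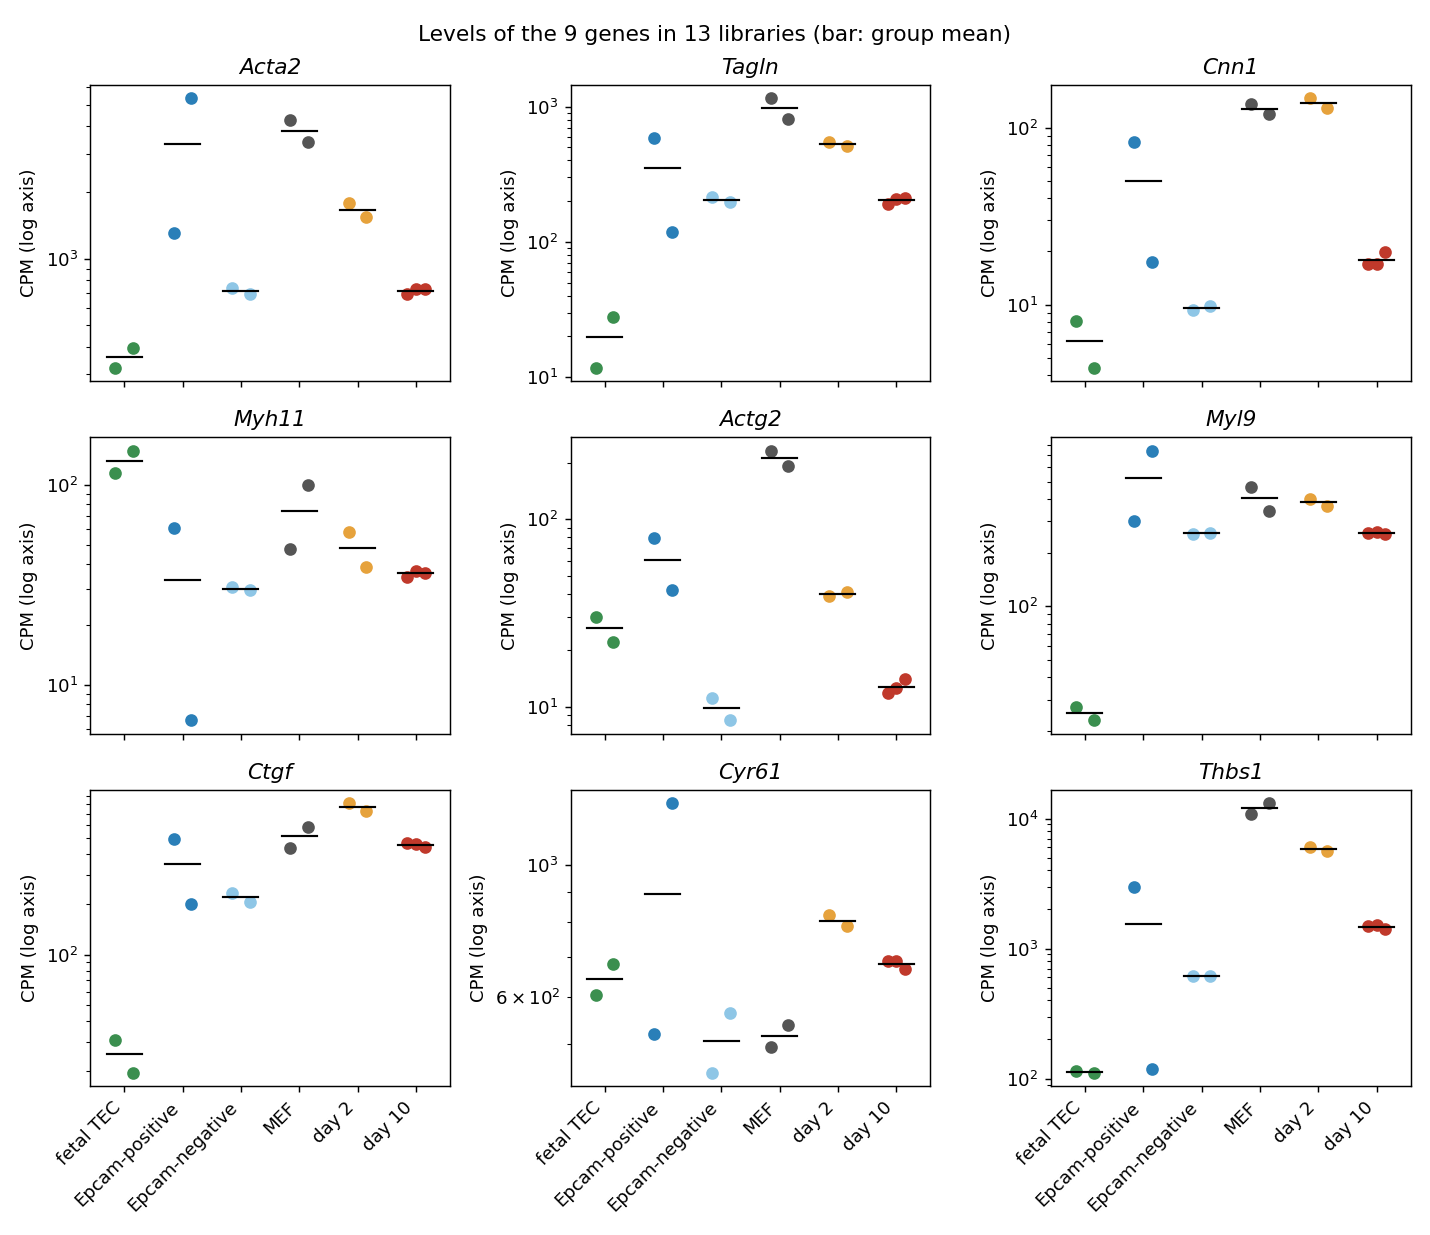
TMM-scaled CPM of the 9 genes (log axis) in each library, with a bar at the group mean. Acta2, Tagln, Actg2 and Thbs1 step down through MEF, day 2 and day 10, Cnn1 is as high at day 2 as in MEF, and the replicates of the Epcam-positive group lie far apart.

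At day 2, Actg2 passed the test against MEF and the other 8 did not in the fit of all 13 libraries. Across all genes 5.52% were called at this time, 2.87% higher and 2.65% lower. By day 10, 5 of the 9 were lower than in MEF (Acta2, Tagln, Cnn1, Actg2 and Thbs1), none was higher, and 4 did not pass, where 16.0% of all genes were called, 9.42% higher and 6.58% lower. The median log2 change of the 9 genes against MEF was −0.60 at day 2 and −2.27 at day 10, with a median of 0 over all tested genes both times. Between day 10 and day 2, Cnn1 and Actg2 fell and 7 did not pass (12.6% of all genes called, 8.24% higher and 4.41% lower), with a median of −1.22 for the 9 genes and 0.02 for all genes. Both comparisons with MEF use the same MEF libraries. In bulk RNA, fewer contractile cells and less RNA per cell cannot be told apart. Over the same libraries 7 fibroblast markers summed to 34531 and 33135 CPM in MEF, 3401 and 3825 CPM at day 2 and 3984 to 4226 CPM at day 10. The part of this difference in the results was not tested.

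Actg2, the gamma actin of gut smooth muscle, was called lower by day 2. It had 232 and 192 CPM in MEF, 38.9 and 41.1 CPM at day 2 and 11.8, 12.5 and 14.0 CPM at day 10. No 2 of these groups overlap. Its log2 change was −2.40 ± 0.36 (SE) at day 2 against MEF (adjusted p = 0.00437, edgeR quasi-likelihood F test), −4.05 ± 0.33 at day 10 against MEF (adjusted p = 8.66e-05) and −1.65 ± 0.31 at day 10 against day 2 (adjusted p = 0.00748). A level of 6.03% of the MEF mean remained at day 10. The day 10 call against MEF held with any library left out. The day 2 call was lost without day 2 replicate 1 (adjusted p = 0.0714) and without replicate 2 (adjusted p = 0.0622), and so was the call between day 10 and day 2 (adjusted p = 0.0615 and 0.069).

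Acta2, the alpha actin of vascular smooth muscle that defines the myofibroblast, had 4241 and 3393 CPM in MEF, 1787 and 1552 CPM at day 2 and 692, 729 and 731 CPM at day 10. The 3 groups stepped down without overlap. The log2 change at day 10 against MEF was −2.41 ± 0.48 (adjusted p = 0.00848 by edgeR), a 5.32-fold lower mean. At day 2 it was −1.19 ± 0.53 (adjusted p = 0.28) and at day 10 against day 2 −1.22 ± 0.47 (adjusted p = 0.132), neither passing the test. Without MEF replicate 1 the day 10 call was lost (adjusted p = 0.0506).

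Tagln encodes transgelin, also called SM22 alpha, which cross-links actin filaments. It stood at 1151 and 812 CPM in MEF, 549 and 510 CPM at day 2 and 191, 207 and 212 CPM at day 10. As for Acta2, no groups overlap. Its log2 change of −2.27 ± 0.57 at day 10 against MEF passed the test (adjusted p = 0.0241, edgeR), whereas −0.89 ± 0.63 at day 2 did not (adjusted p = 0.567). The day 10 call was lost without any single MEF library (adjusted p = 0.106 without replicate 1 and 0.0748 without replicate 2) or day 10 library (adjusted p = 0.0798 to 0.087). The exons of Tagln share 58.35% of their 50-base words with other annotated genes, mainly the antisense gene Gm48529, and the sources used here do not say whether counting used strand, so its level is uncertain.

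Cnn1, which encodes calponin 1, an actin-binding brake on smooth muscle myosin, differed in timing. It had 137 and 119 CPM in MEF, 147 and 129 CPM at day 2 and 17.0, 16.9 and 19.8 CPM at day 10. The day 2 range overlaps that of MEF, and day 10 lies far below both. The log2 change was 0.11 ± 0.58 at day 2 against MEF (adjusted p = 1), −2.84 ± 0.53 at day 10 against MEF (adjusted p = 0.00672) and −2.95 ± 0.54 at day 10 against day 2 (adjusted p = 0.0064, all by edgeR). Without day 2 replicate 1 the last of these was lost (adjusted p = 0.0526). The difference in timing between Cnn1 and Actg2 was not itself tested.

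Neither myosin gene passed the test in the time course. Myh11, the heavy chain of smooth muscle myosin, had 47.5 and 99.6 CPM in MEF, 58.3 and 38.8 CPM at day 2 and 34.8, 37.1 and 36.3 CPM at day 10. The MEF libraries differ from each other by more than the later groups do, and day 2 overlaps MEF. Its log2 change at day 10 against MEF was −1.03 ± 0.68 (adjusted p = 0.364, edgeR). Myl9, a regulatory light chain of smooth muscle and non-muscle myosin, had 464 and 340 CPM in MEF, 402 and 366 CPM at day 2, and 258, 260 and 255 CPM at day 10. All day 10 libraries lie under all MEF libraries, yet −0.64 ± 0.35 did not pass the test (adjusted p = 0.26). Its day 2 change was −0.07 ± 0.38 (adjusted p = 1).

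Thbs1, which encodes thrombospondin 1, a matrix protein that can release TGF-beta from its latent complex, had 10891 and 13140 CPM in MEF, 5993 and 5634 CPM at day 2 and 1485, 1515 and 1424 CPM at day 10. These are 3 separate levels, with the day 10 mean at 12.3% of the MEF mean. The log2 change was −3.03 ± 0.88 at day 10 against MEF (adjusted p = 0.0434, edgeR), against −1.05 ± 0.95 at day 2 (adjusted p = 0.706) and −1.98 ± 0.86 at day 10 against day 2 (adjusted p = 0.182). The day 10 call was lost without any one MEF, day 2, day 10, Epcam-negative or fetal TEC library (adjusted p = 0.0644 to 0.176).

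Ctgf and Cyr61, which encode CCN family matrix proteins and are standard YAP and TEAD target genes, did not pass the test at either time in the fit of all 13 libraries, to which the values here belong. Ctgf had 439 and 586 CPM in MEF, 812 and 727 CPM at day 2 and 470, 461 and 442 CPM at day 10. Day 2 is above both other groups, which overlap. Cyr61 had 494 and 539 CPM in MEF, 823 and 787 CPM at day 2 and 688, 688 and 668 CPM at day 10, so both later groups lie above MEF. The log2 changes at day 2 against MEF were 0.59 ± 0.41 for Ctgf (adjusted p = 0.565) and 0.64 ± 0.38 for Cyr61 (adjusted p = 0.463), and at day 10 −0.16 ± 0.37 (adjusted p = 0.85) and 0.40 ± 0.35 (adjusted p = 0.51), none past the threshold in edgeR. Part of the Ctgf exons (17.23% of 50-base words) is shared with the antisense gene Gm15270.

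**Figure D3:**
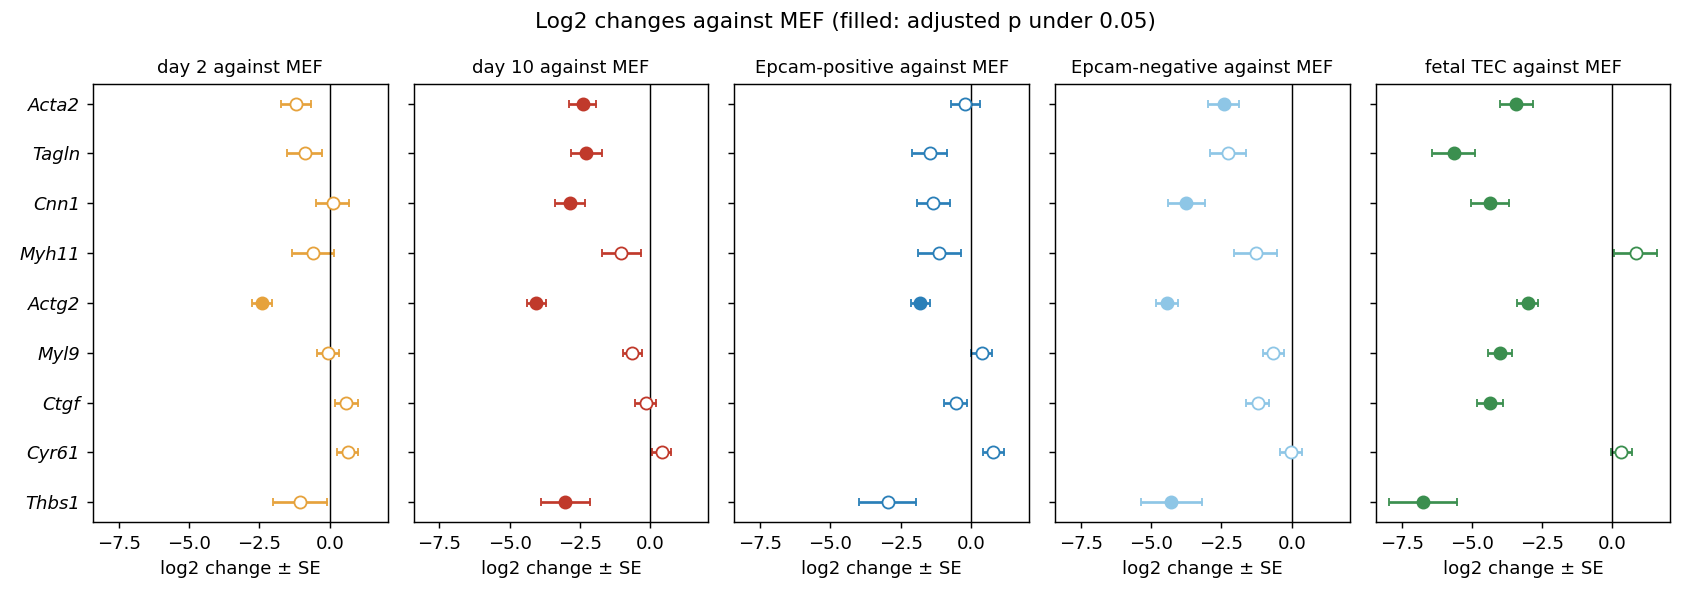
Log2 change against MEF (horizontal axis, bars ± SE) for each gene, listed down the plot, in 5 panels for the other groups, filled where the adjusted p was under 0.05. At day 2 the filled point is Actg2 at −2.40, at day 10 Acta2, Tagln, Cnn1, Actg2 and Thbs1 are filled, and in fetal TEC 7 genes are, leaving out Myh11 and Cyr61.

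How many of the 9 genes passed depended on the libraries in the fit. Without Epcam-positive replicate 2, edgeR called 4 at day 2 against MEF, 8 at day 10 against MEF and 7 at day 10 against day 2, and without Epcam-positive replicate 1 the counts were 4, 8 and 7 as well. Calls over all genes stood at 20.8%, 37.2% and 32.3% without replicate 2 and at 20.8%, 37.2% and 32.5% without replicate 1. In a fit of the 10 libraries with the usual length pattern, 6 of 9 were called at day 2 against MEF (2 higher, 4 lower), 8 at day 10 against MEF (1 higher, 7 lower) and 7, all lower, at day 10 against day 2. More genes of every kind were called in that fit: 39.5% at day 2 against MEF (20.3% higher, 19.2% lower), 56.6% at day 10 against MEF (29.4% higher, 27.3% lower) and 51.4% at day 10 against day 2. There Thbs1 at day 2 was −0.98 ± 0.13 (adjusted p = 0.000618), where the fit of all 13 libraries gave −1.05 ± 0.95. Acta2 was −1.12 (adjusted p = 0.000526), and the higher ones were Ctgf at 0.65 (adjusted p = 0.0138) and Cyr61 at 0.71 (adjusted p = 0.00337). Cyr61 was also the higher one at day 10, at 0.43 (adjusted p = 0.015).

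Sorting at day 12 gave a uniform picture in Epcam-negative cells and a split one in Epcam-positive cells. In Epcam-negative cells 4 of the 9 genes were lower than in MEF (Acta2, Cnn1, Actg2 and Thbs1), none was higher and 5 did not pass, where 11.9% of all genes were called, 7.37% higher and 4.53% lower. The median log2 change was −2.26 for the 9 genes and 0 for all genes. Acta2 had 737 and 695 CPM in Epcam-negative cells, at −2.41 ± 0.55 against MEF (adjusted p = 0.021, edgeR). Cnn1 had 9.28 and 9.85 CPM (−3.75 ± 0.64, adjusted p = 0.00554), and Actg2 11.1 and 8.47 CPM (−4.43 ± 0.40, adjusted p = 0.000164). Thbs1 had 611 and 619 CPM (−4.29 ± 1.08, adjusted p = 0.0315), at 5.12% of its MEF mean.

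Tagln, at 214 and 196 CPM in Epcam-negative cells, missed the threshold narrowly at −2.26 ± 0.65 (adjusted p = 0.0511). Ctgf, at 236 and 206 CPM, lay under both MEF libraries but did not pass (−1.22 ± 0.41, adjusted p = 0.0897). Cyr61, at 448 and 563 CPM, overlapped MEF with a change of −0.03 ± 0.38. Of the 4 calls, Actg2 held with any library left out. Acta2 was lost without any single Epcam-negative or MEF library (adjusted p = 0.07 to 0.158), Cnn1 without either Epcam-negative library (adjusted p = 0.0676 and 0.0621) and Thbs1 without any MEF, day 2, day 10 or Epcam-negative library (adjusted p = 0.0552 to 0.203). With either Epcam-positive library left out, 8 were called (33.1% of all genes without replicate 1 and 32.9% without replicate 2), and 8 were called in the fit of 10 libraries, where 53.2% of all genes were.

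The Epcam-positive replicates disagree on these genes. Replicate 1 held 1305 CPM of Acta2 and 2952 CPM of Thbs1, and replicate 2 held 5336 CPM of Acta2 and 118 CPM of Thbs1. Acta2 made up 20.4% of the counts of the 9 genes in replicate 1 and 68.0% in replicate 2, while Thbs1 made up 46.2% and 1.51% (95% Wilson intervals within 0.33 percentage points). Tagln was 586 and 119 CPM, Cnn1 83.4 and 17.4 CPM, Myh11 60.6 and 6.68 CPM and Ctgf 497 and 201 CPM, all higher in replicate 1. Myl9 (299.5 and 744 CPM) and Cyr61 (520 and 1268 CPM) were higher in replicate 2, along with Acta2. Actg2 was 79.7 and 42.1 CPM.

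Replicate 2 is 1 of the 3 libraries with the reversed length pattern. It held 24641 CPM of 7 epithelial markers against 2673 CPM in replicate 1. The fibroblast markers were at 1945 against 13225 CPM and the macrophage markers at 10.1 against 187 CPM. Krt8 (11171 against 1303 CPM) and Krt18 (13384 against 1297 CPM) made up most of the epithelial sum in replicate 2. Epcam was also higher there (30.6 against 4.80 CPM) and Krt5 similar (21.9 against 21.6 CPM). Cdh1 (24.5 against 31.5 CPM), Krt14 (8.40 against 14.4 CPM) and Trp63 (0 against 0.989 CPM) were lower. Of the fibroblast markers, Dcn went the other way (276 against 103 CPM). Replicate 2 also had the cytoplasmic actins Actb at 26818 CPM and Actg1 at 9859 CPM, against 2615 and 1146 CPM in replicate 1. The skeletal muscle actin Acta1, a close paralog of Acta2, was 745 CPM in replicate 2 and 29.8 CPM in replicate 1, although 6 of the 7 skeletal muscle markers were at 0 there. Acta2 shares 0.326% of its 50-base words with other genes. The part of length pattern, cell make-up and read sharing in the split was not tested.

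With this pair, 1 of the 9 genes was called in Epcam-positive cells against MEF, Actg2 at −1.80 ± 0.35 (adjusted p = 0.00965), and 8 did not pass. Of all genes 20.3% were called, 15.9% higher and 4.40% lower. The median of the 9 was −1.13, and that of all genes 0. Thbs1 stood at −2.97 ± 1.02 (adjusted p = 0.0646) and Acta2 at −0.20 ± 0.52 (adjusted p = 0.816). Without replicate 2, Acta2 was −1.55 (adjusted p = 0.00116) and Thbs1 −2.02 (adjusted p = 9.86e-05), and 3 of the 9 were called, with 18.9% of all genes. Without replicate 1, Acta2 was 0.48 (adjusted p = 0.0536), Thbs1 −6.67 (adjusted p = 3.98e-07), and 8 of the 9 were called, with 60.6% of all genes and a median over all genes of −0.16. The sign for Acta2 differs between the pair. In the fit of 10 libraries 5 of 9 were called, with 40.3% of all genes.

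Between the sorted fractions, Actg2 was higher in Epcam-positive cells, with 79.7 and 42.1 CPM against 11.1 and 8.47 CPM in Epcam-negative cells (2.63 ± 0.36, adjusted p = 0.0319, edgeR). It was 1 of 44 genes called, 0.259% of those tested (0.241% higher, 0.0176% lower), and the other 8 of the set did not pass. All 9 changes were above 0, with a median of 1.03 against 0 for all genes. Cnn1 (83.4 and 17.4 CPM against 9.28 and 9.85 CPM, 2.40 ± 0.61, adjusted p = 0.158) and Acta2 (1305 and 5336 CPM against 737 and 695 CPM, 2.21 ± 0.54, adjusted p = 0.154) also showed no overlap. The same held for Myl9 (299.5 and 744 CPM against 255 and 258 CPM, 1.03 ± 0.39, adjusted p = 0.214). The Actg2 call was lost without any one library outside the Epcam-positive pair (adjusted p = 0.0557 to 0.53). Without Epcam-positive replicate 1, Thbs1 turned to −2.38 (adjusted p = 1.59e-05) and Myh11 to −2.18 (adjusted p = 0.00348), and 7 were called, with 53.5% of all genes and a median over all genes of −0.37. Without replicate 2, Thbs1 was 2.26 (adjusted p = 0.000342), and 3 were called, with 2.80% of all genes. In the fit of 10 libraries 6 were called, with 10.1% of all genes.

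**Figure D4:**
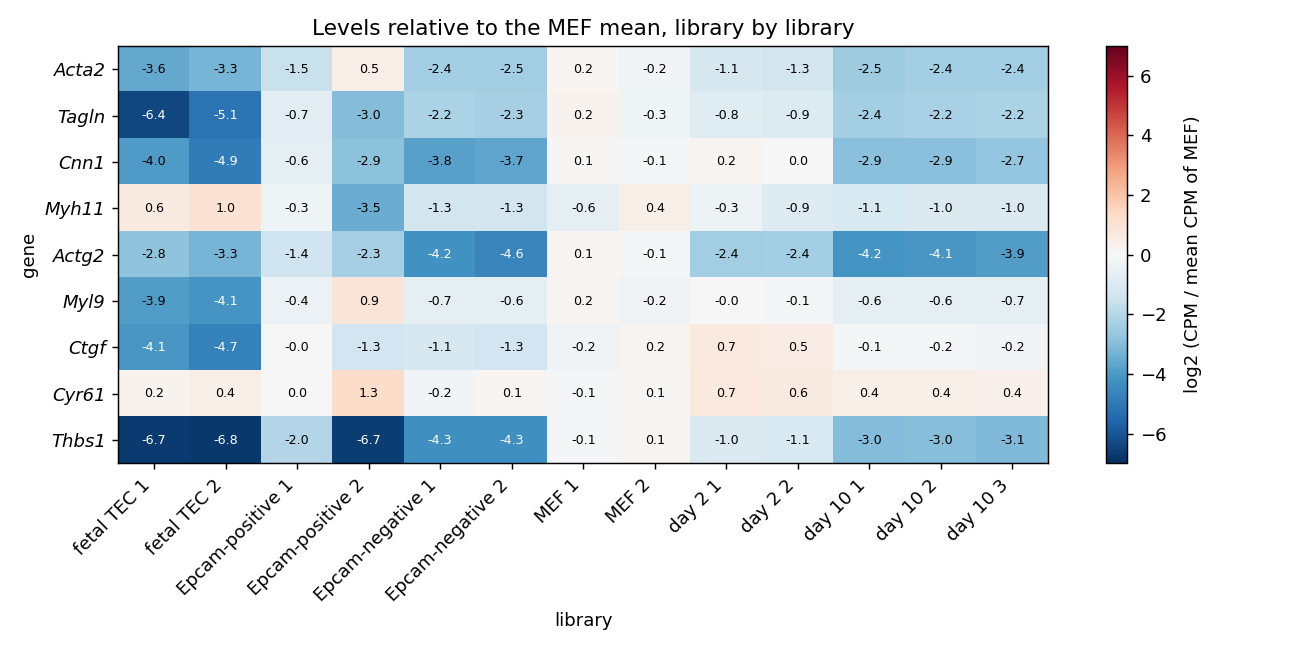
Log2 ratio of each library's CPM to the mean CPM of MEF for each gene, red above and blue below MEF. Epcam-positive replicate 2 combines red Acta2, Myl9 and Cyr61 with deep blue Thbs1 (−6.67), whereas Thbs1 in replicate 1 is at −2.03.

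Fetal TEC gave the lowest contractile levels of the series for most of the 9 genes. Against MEF 7 fell and 2 did not pass, in a comparison where 57.8% of all genes were called, 31.5% higher and 26.3% lower, so the count is to be read against a high background. The median log2 change was −4.00 for the 9 genes and 0.18 for all genes. Thbs1 had 115 and 111 CPM in fetal TEC, at −6.73 ± 1.21 against MEF (adjusted p = 0.00219, edgeR), a 106-fold lower mean. Tagln had 11.7 and 27.7 CPM (−5.64 ± 0.76, adjusted p = 0.000543) and Cnn1 8.10 and 4.38 CPM (−4.36 ± 0.66, adjusted p = 0.00101). Myl9 averaged 25.1 ± 2.94 CPM (SD, n = 2), at −4.00 ± 0.43 (adjusted p = 0.000187), where the lowest programmed library had 255 CPM. Ctgf had 30.9 and 19.6 CPM, at −4.34 ± 0.47 (adjusted p = 0.000187), where the lowest programmed library had 201 CPM.

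Acta2 in fetal TEC had 321 and 396 CPM (−3.41 ± 0.57, adjusted p = 0.00158), and Actg2 had 30.2 and 22.1 CPM (−3.02 ± 0.37, adjusted p = 0.000315). Cyr61, with 605 and 681 CPM, did not pass the test (0.32 ± 0.38, adjusted p = 0.486). It was the highest of the 9 per kilobase in fetal TEC, at 318 ± 26.8 CPM per kilobase, with Acta2 next at 176 ± 25.9 (SD, n = 2). Myh11 had 114 and 148 CPM in fetal TEC, above both MEF libraries, and did not pass the test (0.83 ± 0.76, adjusted p = 0.361). The 7 calls held with any library left out. Both fetal TEC libraries have the reversed length pattern and both MEF libraries the usual one, with Gapdh at 150 and 128 against 0.152 and 0 CPM. Leaving out 1 library cannot separate this difference from that between the groups.

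RNA of genes that mark other cell types was present in the fetal TEC libraries, and bulk RNA does not show which cells held it. The 7 skeletal muscle markers summed to 287 and 560 CPM in fetal TEC and to at most 0.995 CPM in every other library, with none of the 7 at 0 in fetal TEC. Acta1 had 694 and 1772 CPM there, and the cardiac actin Actc1 221 and 535 CPM against at most 0.0805 CPM elsewhere. Pericyte and vascular smooth muscle markers summed to 82.6 and 60.1 CPM in fetal TEC, against 1085 and 769 CPM in MEF. Pdgfrb made up most of the MEF sum (793 and 591 CPM). Rgs5 (15.0 and 16.6 against 0.470 and 0.983 CPM) and Kcnj8 (13.4 and 12.6 against 0.636 and 0.441 CPM) were higher in fetal TEC. Pdgfrb, Cspg4, Notch3, Mcam and Abcc9 were lower there. The 7 thymocyte markers summed to 1063 and 432 CPM in fetal TEC and to at most 2.78 CPM elsewhere, and the macrophage markers to 402 and 505 CPM. The fibroblast markers summed to 4047 and 2557 CPM in fetal TEC, with 3984 to 4226 CPM at day 10, but their members differed. Dcn (672 and 659 against 71.3 to 77.7 CPM) and Lum (66.3 and 60.4 against 6.59 to 8.36 CPM) were higher in fetal TEC. Col1a2 (505 and 288 against 2121 to 2258 CPM), Thy1 (5.12 and 9.64 against 61.1 to 69.0 CPM), Pdgfra and Vim were lower. Col3a1 lay on both sides of day 10 (2543 and 1319 against 1434 to 1536 CPM). The part of any such cells in the levels of the 9 genes was not tested.

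Day 10 cultures and fetal TEC can be set side by side as shares of MEF. The mean of Acta2 was 18.8% of the MEF mean at day 10 and 9.39% in fetal TEC, that of Thbs1 12.3% and 0.942%, and that of Tagln 20.7% and 2.01%. Actg2 was lower at day 10 (6.03%) than in fetal TEC (12.3%), as was Myh11 (49.0% and 178%), and the libraries do not overlap for either gene. Cnn1 was at 13.9% at day 10 and 4.87% in fetal TEC. Cyr61 was at 132% and 125%, with overlapping libraries. Myl9 kept 64.1% of its MEF mean at day 10 and 6.24% in fetal TEC, and Ctgf kept 89.2% and 4.92%. Day 10 and fetal TEC were not tested against each other here, and their libraries differ in length pattern.

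Other contractile and actin-binding genes, a list of 26 chosen for their role, included none that passed in edgeR at day 2 and 5 that fell at day 10. At day 2, 4 had an unadjusted p under 0.05 and DESeq2 called 3. The 5 called lower at day 10, where 16.0% of all genes were called and 6.58% lower, were the tropomyosins Tpm4 (518 against 1426 CPM in MEF, −1.46 ± 0.23, adjusted p = 0.00235), Tpm2 (91.2 against 468 CPM, −2.36 ± 0.38, adjusted p = 0.00304) and Tpm1 (645 against 1782 CPM, −1.47 ± 0.27, adjusted p = 0.00563), which wrap actin filaments, and, named after their values were seen, the actin and myosin binding Cald1 and the stress fibre gene Synpo2. The list median at day 10 was −1.22. Tpm1 had 1696 and 1867 CPM in MEF, 2546 and 2141 CPM at day 2 and 630.5 to 662 CPM at day 10, so day 2 lay above MEF and day 10 below it. Against MEF, 5 of 26 fell in Epcam-negative cells (4.53% of all genes lower), 6 fell and 1 rose in Epcam-positive cells (4.40% lower, 15.9% higher), and 17 fell and 1 rose in fetal TEC (26.3% lower, 31.5% higher).

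In the lists of SRF and its cofactors, of YAP and TEAD factors and of TGF-beta ligands and receptors, edgeR called no gene lower at day 2 or day 10. Srf itself rose at day 2, to 121 and 120 CPM against 67.7 and 57.0 CPM in MEF (0.95 ± 0.23, adjusted p = 0.0445), and none of the 4 SRF list genes in the table (Srf, Myocd, Mkl1 and Mkl2) passed at day 10, where 1 had an unadjusted p under 0.05 and DESeq2 called 1. Of 6 YAP and TEAD factors, Tead4 rose at day 2 (16.1 against 1.99 CPM, 3.01 ± 0.41, adjusted p = 0.00241) and at day 10 (15.6 CPM, 2.97 ± 0.39, adjusted p = 0.000949). Wwtr1, which encodes TAZ, rose at day 10 (479 against 232 CPM, 1.05 ± 0.24, adjusted p = 0.0153). In fetal TEC 5 of the 6 fell, where 57.8% of all genes were called and 26.3% lower. Among 20 further YAP target genes, 3 fell at day 2 (2.65% of all genes lower) and, at day 10, 3 rose (Fjx1, Foxf2 and Nt5e) and 3 fell (F3, Gadd45a and Asap1), where 9.42% of all genes were higher and 6.58% lower. Of these, Nt5e, Gadd45a and Asap1 were named after their values were seen. At day 2, 7 of the 20 had an unadjusted p under 0.05 and DESeq2 called 5, where the counts over all genes were 2979 and 2203. At day 10 both counts were 11, where those over all genes were 5040 and 4221.

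None of 13 TGF-beta ligand, receptor, Smad and related genes passed at day 2 or day 10, with list medians of −0.42 and −0.93, and 10 of the 13 fell in fetal TEC, against 26.3% of all genes there. At day 2, 2 of them had an unadjusted p under 0.05 and DESeq2 called 2, and at day 10 both counts were 3. Tgfb2, a TGF-beta ligand kept in the YAP target list, was 173 and 299 CPM in MEF, 31.4 and 27.6 CPM at day 2 and 214 to 220 CPM at day 10, and its day 2 change passed (−3.00 ± 0.56, adjusted p = 0.0144). Among 18 TGF-beta response genes 1 fell at day 2, where 2.65% of all genes were lower. It was Eln, which encodes elastin, at 0.0363 and 0.065 CPM at day 2, against 77.0 and 164 CPM in MEF. At day 10 the AP-1 gene Junb and the oxidase gene Nox4 rose and Eln and Spsb1 fell, the last named after its values were seen. These 2 of 18 in each direction stand beside 9.42% of all genes called higher and 6.58% called lower. At day 10, 9 of the 18 had an unadjusted p under 0.05 and DESeq2 called 9, where the counts over all genes were 5040 and 4221. At day 2 both counts were 6, where those over all genes were 2979 and 2203.

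Paralogs of the 9 genes were mixed. At day 10, 7 of 16 fell and 2 rose, where 6.58% of all genes were lower and 9.42% higher. The CCN genes Nov (2.11 against 437 CPM in MEF, −7.69 ± 1.06, adjusted p = 0.00134), Wisp1 (141 against 933 CPM, −2.72 ± 0.24, adjusted p = 0.000131) and Wisp2 (25.6 against 150 CPM, −2.55 ± 0.36, adjusted p = 0.00146) all fell. Tagln2 and Cnn3 fell, and so did Thbs2 and Thbs3, while Thbs4 (46.1 against 0.115 CPM) and Comp rose. The cytoplasmic actins Actb (−0.79 ± 0.71, adjusted p = 0.527) and Actg1 (−0.37 ± 0.67, adjusted p = 0.793) and the light chain Myl6 (−0.31 ± 0.36, adjusted p = 0.64) did not pass at day 10.

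Across the 10 libraries with the usual length pattern, the levels of Acta2 varied with those of Tagln (Pearson r = 0.97 of log2 CPM), Actg2 (0.96) and Thbs1 (0.93), whereas its r was 0.50 with Ctgf and −0.16 with Cyr61. Over all 13 libraries the same values were 0.69, 0.72, 0.51, 0.56 and 0.28. Myh11 changed sides, with r of 0.76 to Acta2 in the 10 libraries and −0.44 in all 13. These are descriptions over libraries that share groups and scaling. By the same measure over 13 libraries, the genes outside the set most like Acta2 were Nars, Ccdc136, P4ha2, Colgalt1 and Pdcl3 (r = 0.92 to 0.93). Those most like Ctgf were Flrt2, Nrn1, Ppbp, Hspa4 and Bend3 (r = 0.98). Over the 10 libraries r to Acta2 was 0.88 to 0.96 for its 5 genes, and r to Ctgf was 0.96 for Flrt2, 0.86 for Nrn1, 0.85 for Ppbp, 0.81 for Hspa4 and 0.78 for Bend3.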

How the data were processed

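RNA-seq was read as whole-number counts per gene for 13 libraries in 6 groups, a table deposited by the authors. Per the submitters' processing notes, FastQC, Trimmomatic, HISAT2, SAMtools, StringTie and DESeq2 were used with build mm10. The counting tool, annotation, strand setting and treatment of shared reads are not stated there. Total counts ran from 35805780 to 86465460 per library.

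Counts were scaled by TMM and fitted once over 13 libraries with the robust quasi-likelihood F test of edgeR 4.0.16 (limma 3.58.1, R 4.3.3), after filtering by expression within groups, leaving 17004 of 24394 symbols. Adjusted p-values are Benjamini-Hochberg over those 17004 genes, with a threshold of 0.05. SE is the size of the log2 change divided by the square root of F. The method was also run on simulated counts, drawn independently around a common mean per gene with planted changes. These counts held no length pattern, no split in sex-linked RNA and no discordant replicate pair. That run therefore cannot show how the method deals with such differences. DESeq2 1.42.0 was an alternative. Tables and plots were made in Python 3.11.15 (pandas 2.3.3, numpy 2.4.6, matplotlib 3.10.9), and intervals with scipy 1.17.1. Positions and exon lengths come from GENCODE M21 on mm10.

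The 9 genes, related lists and tests were chosen with earlier results of these data known. Named are the 9 genes, up to 3 genes of each related list with the smallest p in a comparison, close paralogs, Actb, Actg1, Myl6, Foxn1, and the 5 genes most like Acta2 and Ctgf. Comparisons with MEF share the MEF libraries. No replicate pair agreed within sampling noise. Same-numbered libraries did not deviate together. Intervals cover counting error only.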

Additional observations from a re-analysis of the deposited data

How the results depend on the processing

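Of 1323 alternative values, 1151 kept direction and side of the threshold, 94 came to pass it, 60 no longer passed and 18 changed sign. The cause was not tested. Counts of the 9 genes called are given next. With library size alone they were 3 at day 10 against MEF and 0 in Epcam-positive against Epcam-negative cells. With a replicate block they were 2 at day 10 against MEF, 2 in Epcam-negative cells against MEF and 0 between the sorted fractions, and the numbers only name libraries (correlations −0.158 to 0.095). The 10 libraries gave 6 (day 2), 8 (day 10), 7 (day 10 against day 2), 8 (Epcam-negative), 5 (Epcam-positive) and 6 (between fractions). Only the groups compared gave 3 (day 2), 8 (day 10), 9 (day 10 against day 2), 0 (Epcam-positive) and 0 (between fractions). DESeq2 gave 4 in Epcam-positive cells against MEF and 3 between fractions. Leaving out 1 library gave 0 to 4 (day 2), 2 to 8 (day 10), 0 to 7 (day 10 against day 2), 1 to 8 (Epcam-negative), 1 to 8 (Epcam-positive), 0 to 7 (between fractions) and 7 (fetal TEC).

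Sign changes against MEF: with library size alone, Myl9 0.044 at day 2, Ctgf 0.00244 at day 10 and Cyr61 0.215 in Epcam-negative cells. With the 10 libraries, Myl9 was 0.00182 at day 2 and −0.43 in Epcam-positive cells, and Cyr61 0.0002 in Epcam-negative cells. Between fractions, Myh11 was −0.0102 with library size alone. Without MEF replicate 1, Myh11 was −1.03 and Myl9 0.177 at day 2 and Ctgf −0.383 at day 10. Without MEF replicate 2, those were 0.0293, −0.276 and 0.0567. Cyr61 in Epcam-negative cells against MEF ranged from −0.205 (without Epcam-negative replicate 2) to 0.129 (without replicate 1), and was 0.0334 without MEF replicate 2. Without Epcam-positive replicate 2, Acta2 was −1.55 and Myl9 −0.425 against MEF, and Tagln 1.52, Ctgf 1.17, Thbs1 2.26 and Myh11 1 between fractions. Without replicate 1, Acta2 was 0.483 and Myl9 0.886 against MEF, and Tagln −0.784, Ctgf −0.134, Thbs1 −2.38 and Myh11 −2.18 between fractions.

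Counts of all genes called moved more. At day 2 against MEF they were 938, against 391 with the replicate block, 6438 in the 10 libraries, 2949 with only the groups compared and 2203 by DESeq2. A crossed pairing, chosen after seeing the data, gave 468. At day 10 against MEF they were 2720, against 1040, 9231, 7959 and 4221 under the same settings in the same order, and at day 10 against day 2 they were 2151, against 831, 8373, 10927 and 3605. In Epcam-negative cells against MEF they were 2025, against 915, 8671, 4996 and 3640, and in Epcam-positive cells against MEF 3455, against 1036, 6572, 0 and 6133. Between fractions they were 44, against 1, 1651, 0 and 1729, and 7 with library size alone, while 3261 had an unadjusted p under 0.05. Where edgeR called 0 with only the groups compared, 1795 genes (Epcam-positive against MEF) and 349 (between fractions) had an unadjusted p under 0.05. Leaving out 1 library gave 299 to 3718 (day 2), 1028 to 6650 (day 10), 564 to 5792 (day 10 against day 2), 719 to 5897 (Epcam-negative), 669 to 10819 (Epcam-positive), 0 to 9545 (between fractions) and 5507 to 12611 (fetal TEC). The 0 arose without either Epcam-negative library, where 979 and 1178 had an unadjusted p under 0.05. Library size alone shifted the median of all genes by 0.118 at day 10 and 0.227 in Epcam-negative cells, each against MEF, and by −0.242 between fractions. With it the share of calls that were higher was 69.5%, 75.7% and 71.4% in that order, where TMM gave 58.9%, 61.9% and 93.2%. Each group holds 2 or 3 libraries.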
